A study of Homo sapiens with 6 samples.

Results

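The thrombospondins are a family of 5 genes, *THBS1*, *THBS2*, *THBS3*, *THBS4* and *COMP*, taken from the deposited count table by their symbols out of 60663 genes. They were compared in CCD18Co, a human fibroblast line of the colon. Cells transfected for 6 h with siRNAs against *LTBP2* (siLTBP2) were set against the same cells given a non-targeting siRNA pool (siNT). RNA was collected 48 h after transfection from 3 libraries of each group. The cells are 1 line, and *LTBP2* was silenced with 1 siRNA pool, so what followed from the loss of *LTBP2* and what the pool did to other RNAs cannot be told apart. Since nothing in the labels says that the libraries came from separate cultures, the p-values measure the spread between these libraries, which may be technical.

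Thrombospondins are secreted matricellular glycoproteins, which bind the extracellular matrix, growth factors and cell surface receptors rather than build fibres themselves. *THBS1* and *THBS2* encode proteins that assemble as trimers and carry the type 1 repeats bound by the receptor CD36, through which they inhibit angiogenesis, and the *THBS1* protein also activates latent TGF-beta. *THBS3*, *THBS4* and *COMP* (cartilage oligomeric matrix protein) encode pentamers that lack type 1 repeats and are best known from cartilage, tendon and muscle. Fibroblasts are a common source of *THBS1* and *THBS2*, and *THBS1* responds quickly to serum, mechanical tension and TGF-beta.

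Of the 5 genes, 1 was deregulated in siLTBP2, *THBS1*, which fell to 40.1% of its siNT level. Deregulated means here more than 2-fold different at an adjusted p below 0.01, the thresholds of the study. Of 16920 genes tested, 2.57% were deregulated, with 1.29% higher and 1.27% lower in siLTBP2. *THBS3* and *THBS4* were tested and did not pass. *THBS2* and *COMP* had too few counts to be tested, so the 5 members gave 3 tests.

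The libraries held between 44663424 and 53576899 counts. The targeted gene *LTBP2* was at 25, 23.1 and 21.2 CPM (counts scaled to a common library size, normalized by TMM) in siNT and at 6.49, 8.61 and 6.00 CPM in siLTBP2, with no overlap (log2 fold change -1.72, standard error 0.15, adjusted p = 6.6e-05). Adjusted p values here and below are those of the quasi-likelihood fit in edgeR. All 10 fibroblast markers looked for were tested, and their summed level was 9959 to 13222 CPM in siNT and 10098 to 14431 CPM in siLTBP2. One of them fell, the receptor gene *PDGFRB*, by 0.60 on the log2 scale (adjusted p = 0.0025). Platelets, whose granules are rich in thrombospondin, were looked for by 5 markers, of which *PF4*, *PPBP* and *GP9* had a count of 0 in all 6 libraries and all 5 together summed to at most 0.148 CPM. The epithelial markers summed to at most 0.338 CPM and the leukocyte markers to at most 0.698 CPM. Endothelial markers summed to 67.4 to 83.6 CPM in siNT and 59.9 to 74.3 CPM in siLTBP2, nearly all of it from *TEK*, while *PECAM1* stayed at a mean of 0.119 CPM or less in each group. Smooth muscle markers summed to 219 to 246 CPM in siNT and 382 to 422 CPM in siLTBP2, with *SMTN* (log2 fold change 0.79, adjusted p = 0.00024) and *ACTG2* (0.57, adjusted p = 0.0056) higher, while *MYH11*, *DES* and *CNN1* stayed under the filter on low counts. The part of these genes in the results below was not tested, and those named were chosen after their values were seen.

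*THBS1* (ENSG00000137801) lies on the plus strand of chromosome 15 of GRCh38, at chr15:39581079-39599466, and its canonical transcript has 22 exons and 7789 bases. *THBS2* (ENSG00000186340), its closest relative in domain structure, lies on the minus strand at chr6:169215780-169254050. The sequences around their starts, 250 bases before and 50 after, are printed because *THBS1* was among the most abundant genes of these cells and *THBS2* was nearly absent. They are the RefSeq sequences of GRCh38.p14, 5′ to 3′ on the strand of the gene, at chr15:39580829-39581128 and chr6:169253797-169254096. The start used is the RefSeq one, which for *THBS1* is the start of the gene given above, while for *THBS2* it is base 169253846, 204 bases inside the gene as annotated in GENCODE, whose span takes in transcripts with an earlier start. Capitals mark GGAATG, the core of the site bound by TEAD factors, CCAAT and TATAAA on either strand.

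THBS1: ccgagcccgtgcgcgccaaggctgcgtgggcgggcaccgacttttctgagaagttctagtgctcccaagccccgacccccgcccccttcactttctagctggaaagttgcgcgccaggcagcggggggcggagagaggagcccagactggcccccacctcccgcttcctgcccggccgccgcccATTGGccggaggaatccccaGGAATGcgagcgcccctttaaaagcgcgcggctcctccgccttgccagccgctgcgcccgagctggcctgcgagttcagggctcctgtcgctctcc

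THBS2: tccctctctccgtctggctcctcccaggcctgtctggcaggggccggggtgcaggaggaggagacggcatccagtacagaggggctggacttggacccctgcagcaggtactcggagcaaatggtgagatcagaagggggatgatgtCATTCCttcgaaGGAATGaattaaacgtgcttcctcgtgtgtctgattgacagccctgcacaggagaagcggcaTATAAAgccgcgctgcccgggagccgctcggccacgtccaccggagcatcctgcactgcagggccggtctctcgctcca

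The *THBS1* window holds 1 GGAATG, at position -46 from the start, and 1 CCAAT on the other strand at -66, with no TATAAA. The *THBS2* window holds 2 copies of GGAATG, in opposite directions at -103 and -91, and 1 TATAAA at -29, with no CCAAT, all counted from the RefSeq start, so that these words lie inside the longer GENCODE gene. Among 35116 promoter windows of this length, 14% hold GGAATG, 34.6% CCAAT and 11.5% TATAAA. The *THBS1* window also holds 29 CG pairs and the *THBS2* window 17, against a median of 14 over all windows. These words were chosen after the sequences were seen and describe the windows only. Only exact copies were searched, so a window without TATAAA may still hold a similar sequence.

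*THBS1* made up nearly all of the family's RNA. Per kilobase of canonical transcript, which makes genes of different length comparable, its level in siNT was 779, 600 and 674 CPM per kb. *THBS3* followed with 1.67, 2.35 and 1.35 CPM per kb in siNT, and *THBS4* with 0.195, 0.189 and 0.213 CPM per kb. In siLTBP2 the levels were 273, 264 and 287 CPM per kb for *THBS1*, 2.04, 2.23 and 1.37 CPM per kb for *THBS3* and 0.150, 0.203 and 0.0648 CPM per kb for *THBS4*. The ranges of these 3 genes over the 6 libraries did not overlap, so the order *THBS1*, *THBS3*, *THBS4* held in every library. The levels of *THBS2* reached 0.0111 CPM per kb and *COMP* was at 0 throughout. These last 2 could not be ordered, since 3 counts, the limit that a count of 0 allows, would correspond to between 0.0227 and 0.0281 CPM per kb of *COMP*.

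**Figure D1:**
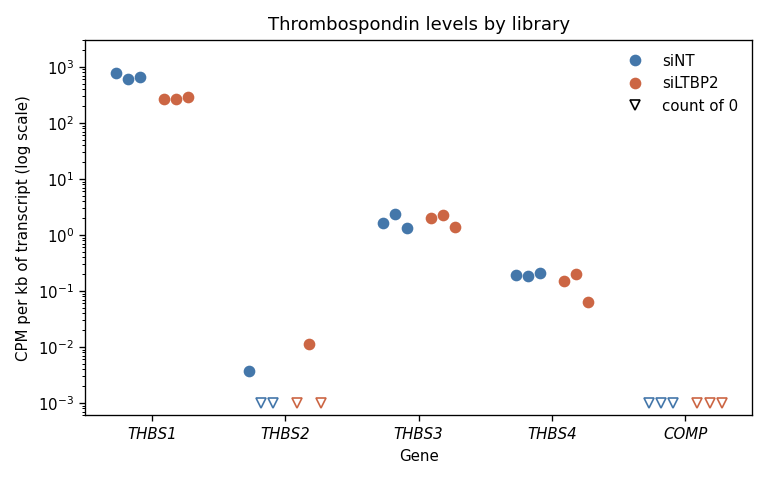
Levels of the 5 thrombospondin genes in CPM per kilobase of canonical transcript on a log axis, 1 point per library, siNT in blue and siLTBP2 in orange, with libraries at a count of 0 drawn as open triangles at the foot of the axis. *THBS1* lies between 264 and 779 CPM per kb, *THBS3* between 1.35 and 2.35 and *THBS4* between 0.0648 and 0.213, while *COMP* has no count in any library.

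The share of *THBS1* in the summed family level was 99.76%, 99.58% and 99.77% in siNT and 99.21%, 99.08% and 99.50% in siLTBP2. It was lower in each siLTBP2 library than in each siNT library. The ratio of *THBS1* to *THBS3* per kb went from 466, 255 and 499 in siNT to 134, 118 and 210 in siLTBP2, again with no overlap. The silenced cells therefore still carried mostly *THBS1* within the family.

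In CPM, the level of *THBS1* was 6064, 4671 and 5253 in siNT and 2130, 2053 and 2235 in siLTBP2. The groups did not overlap, and the spread was wider in siNT (5329 ± 700 CPM, SD, n = 3) than in siLTBP2 (2139 ± 91.5 CPM, SD, n = 3). The log2 fold change was -1.32 (95% interval -1.59 to -1.04, standard error 0.12, adjusted p = 0.0001). The exact permutation test over libraries gave a two-sided p of 0.1, the smallest that 3 libraries against 3 allow. Groups did not overlap in 37% of all tested genes, and in 18.3% all siLTBP2 libraries lay below all siNT libraries. With 1 library left out at a time, the log2 fold change of *THBS1* stayed between -1.40 and -1.22. In bulk RNA of this kind, fewer cells with *THBS1* and less *THBS1* RNA per cell cannot be told apart.

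The fall of *THBS1* was a large one in terms of RNA. *THBS1* took 0.597%, 0.489% and 0.529% of all counts in siNT, and in siLTBP2 this share was 0.208%, 0.204% and 0.222%. By counts it ranked between 5 and 8 among all genes in siNT and between 18 and 25 in siLTBP2. By counts per base of transcript, among 19879 protein-coding genes, its rank went from between 33 and 61 to between 166 and 191. It had the highest mean level of the 434 deregulated genes, and by the size of its fall it ranked 99 among the 215 that were lower. Of the 74 tested genes with a mean of at least 1000 CPM, 2 were deregulated, which is 2.7%, *THBS1* and the urokinase gene *PLAU* (log2 fold change 1.24, adjusted p = 0.00041). *THBS1* had the lowest log2 fold change of these 74 genes, and the next lowest was -0.88, of *IGFBP5*, which encodes a binding protein of insulin-like growth factors. The limit of 1000 CPM, and with it *PLAU* and *IGFBP5*, was chosen after the data were seen.

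**Figure D2:**
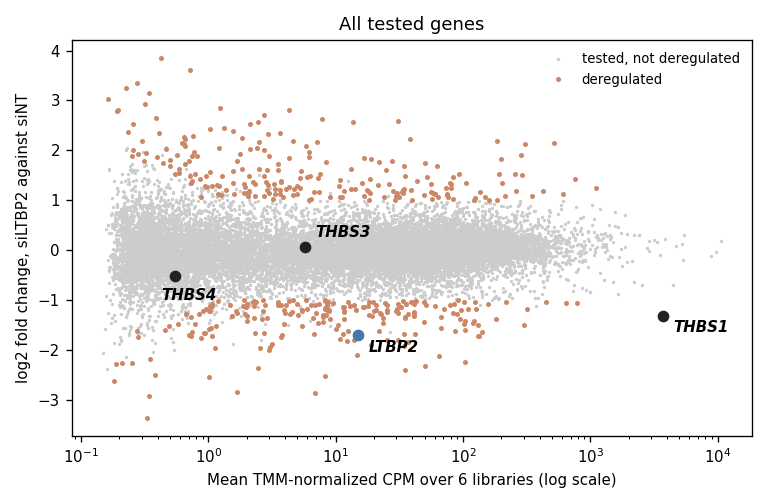
Log2 fold change of siLTBP2 against siNT for the 16920 genes tested, against mean CPM over the 6 libraries on a log axis, with deregulated genes in orange, *LTBP2* in blue and the thrombospondins in black. *THBS1*, at a mean of 3734 CPM, sits to the right of all other deregulated genes, while *THBS3* and *THBS4* lie inside the grey cloud.

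The gene *THBS1-IT1* (ENSG00000276107), annotated as a noncoding RNA of 733 bases, lies within intron 7 of *THBS1* on the same strand, at chr15:39586561-39587293, and shares no base with an annotated exon of *THBS1*. Its counts and those of unspliced *THBS1* RNA cannot be told apart. It had 339, 446 and 422 counts in siNT and 138, 115 and 146 in siLTBP2. In CPM this was 7.33, 9.03 and 7.83 in siNT and 3.17, 2.43 and 2.77 in siLTBP2, so the groups did not overlap here either. *THBS1-IT1* was deregulated, with a log2 fold change of -1.53 (95% interval -1.88 to -1.18, standard error 0.16, adjusted p = 0.00017).

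The intronic counts were then set against those of *THBS1*. For every 1000 *THBS1* counts there were 1.21, 1.93 and 1.49 *THBS1-IT1* counts in siNT and 1.49, 1.18 and 1.24 in siLTBP2. These ranges overlapped, with means of 1.54 ± 0.366 and 1.30 ± 0.161 (SD, n = 3), and the exact permutation test of the ratio gave a two-sided p of 0.4. With 3 libraries a group, this does not show that the ratios were equal.

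**Figure D3:**
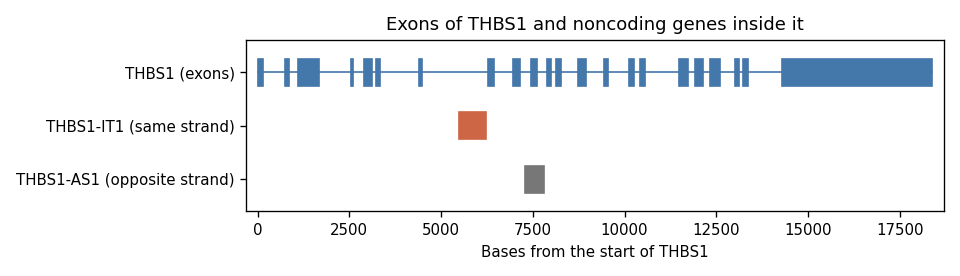
Map of *THBS1* in bases from its start, drawn to scale, with the 22 exons of the canonical transcript as blue boxes, *THBS1-IT1* in orange and *THBS1-AS1* in grey. *THBS1-IT1* fills 733 of the 1783 bases of intron 7, and *THBS1-AS1* lies over exon 10 on the other strand.

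**Figure D4:**
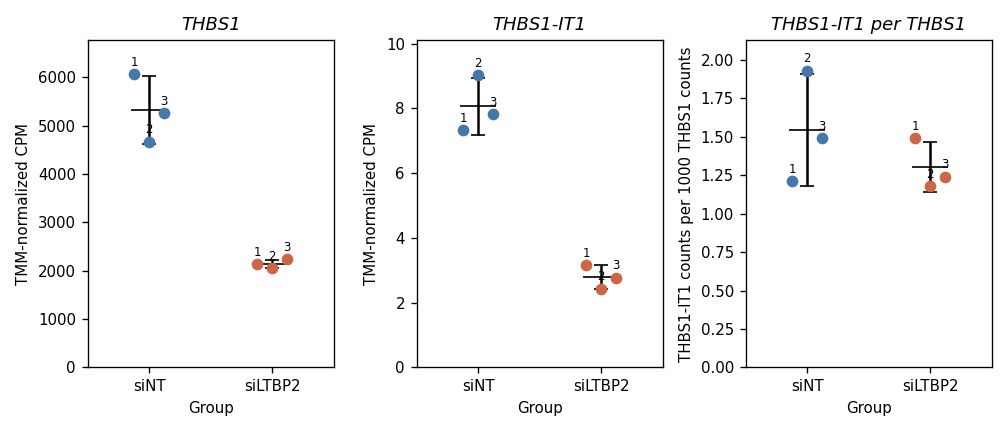
TMM-normalized CPM of *THBS1* (left) and *THBS1-IT1* (middle), and *THBS1-IT1* counts per 1000 *THBS1* counts (right), by group, with points numbered by replicate and bars giving the mean and SD of 3 libraries. Both genes separate the groups, from a mean of 5329 to 2139 CPM and from 8.06 to 2.79 CPM, while the ratio overlaps between them.

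On the other strand of *THBS1* lie *THBS1-AS1*, over exon 10, and the 3′ part of *FSIP1*, a testis gene. *THBS1-AS1* had between 1 and 12 counts per library and was not tested. The level of *FSIP1* was 1.69 ± 0.207 CPM with siNT and 1.69 ± 0.338 CPM with siLTBP2 (SD, n = 3, adjusted p = 1). Whether the counting used strand was not stated for these files. *THBS1-AS1* shares 411 exon bases with *THBS1* and *FSIP1* 448, so reads in these bases are uncertain where the counting did not use strand. Both genes together held far fewer counts than *THBS1*, which does not settle this.

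Genes whose 3′ UTR holds GCACCCA were on the whole lower in siLTBP2 in these libraries, a word found in an earlier look at these data that occurs 4 times in the canonical transcript of *LTBP2*. Of 12314 tested genes with a 3′ UTR, 1455 carried it. Their median log2 fold change was -0.15, and that of the genes without it 0.02. It was carried by 42.3% of the deregulated lower genes with a 3′ UTR and by 11.8% of all. Because the word was found in these same data, these values are a description and no independent test. Carriers and other genes were not matched for 3′ UTR length. The 7789 bases of the canonical *THBS1* transcript, 4097 of them 3′ UTR, hold no copy. Among the other members, *THBS2* and *THBS3* have 1 copy each in the coding sequence, *COMP* has 1 in its 3′ UTR and *THBS4* has none. Shorter or imperfect matches were not searched, and whether the siRNA pool acts on *THBS1* was not tested.

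*THBS3* (ENSG00000169231), on the minus strand at chr1:155195588-155209051, encodes a pentameric thrombospondin of bone and cartilage. It had 243, 365 and 229 counts in siNT and 279, 332 and 227 in siLTBP2, which gave 5.25, 7.39 and 4.25 CPM and 6.4, 7.02 and 4.31 CPM. The groups overlapped, and in both of them replicate 2 was highest and replicate 3 lowest. The log2 fold change was 0.07 with a standard error of 0.23 (adjusted p = 0.88), and its 95% interval ran from -0.44 to 0.58. A change of 2-fold in either direction lay outside that interval. *THBS3* shares exon bases with genes on the other strand, 1198 with *THBS3-AS1* and 146 with *MTX1*, which encodes a mitochondrial import protein, so its counts are uncertain. *THBS3-AS1* had 1.30 ± 0.134 CPM with siNT and 1.16 ± 0.237 CPM with siLTBP2, and *MTX1* at 12.5 ± 0.716 and 11.3 ± 0.593 CPM (SD, n = 3). Neither passed the test, with an adjusted p of 0.65 and 0.41.

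*THBS4* (ENSG00000113296), on the plus strand at chr5:79991311-80083287, encodes a pentamer known from tendon, muscle and nervous tissue. Its counts were 29, 30 and 37 in siNT and 21, 31 and 11 in siLTBP2, or 0.627, 0.608 and 0.686 CPM and 0.482, 0.656 and 0.209 CPM. The low siLTBP2 library was replicate 3, and replicate 2 lay within the siNT range. The log2 fold change of -0.53, with a standard error of 0.37 (adjusted p = 0.36), had a 95% interval from -1.34 to 0.29. At this depth neither a 2-fold fall nor no change at all could be told from the measured value. The genes *RBX1P2*, *TRMT112P2* and *THBS4-AS1*, which overlap *THBS4*, had at most 9 counts in any library.

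*THBS2*, whose product is a matrix protein of fibroblasts that limits angiogenesis and collagen fibril growth, had 1, 0 and 0 counts in siNT and 0, 3 and 0 in siLTBP2, which is 4 of 293188945 counts in all. *COMP* (ENSG00000105664), on the minus strand at chr19:18782773-18791305, had a count of 0 in all 6 libraries. A count of 0 allows a level of up to 0.0556 to 0.0688 CPM per library, taken as 3 counts, which covers counting error only. No fold change was given for either gene. Any response of *THBS2* or *COMP* to siLTBP2 below that limit was not detectable.

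The antisense gene *THBS2-AS1* (ENSG00000226445), on the plus strand across most of *THBS2* and beyond it, held more counts than *THBS2*. It had 18, 16 and 14 counts in siNT and 5, 7 and 6 in siLTBP2. This corresponded to 0.324 ± 0.0648 CPM and 0.126 ± 0.0195 CPM (SD, n = 3), with no overlap between the groups. The log2 fold change was -1.34 (standard error 0.38, 95% interval -2.18 to -0.51), and with an adjusted p of 0.031 it did not pass the threshold of 0.01. Leaving out 1 library gave an adjusted p between 0.045 and 0.12. It shares 2249 exon bases with *THBS2*, so that the few counts of both genes are uncertain where the counting did not use strand.

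Cell surface receptors of thrombospondins were looked at next. All 14 genes of the list were in the table and 13 were tested. By the adjusted p alone (below 0.01), whatever the size of the difference, 4.78% of all tested genes rose and 4.38% fell, and of the 13 receptors 4 rose and none fell. One was deregulated, *ITGA6*, against 2.57% of all tested genes. It was joined by *SDC1* without siNT replicate 1 or without siLTBP2 replicate 3 (log2 fold change 1.09 in both). The median log2 fold change of the list was 0.20, against -0.01 over all tested genes. *CD36*, which binds the type 1 repeats, had levels of 0.573 ± 0.0502 CPM with siNT and 0.463 ± 0.107 CPM with siLTBP2 (SD, n = 3, adjusted p = 0.49). *CD47*, the receptor of the C-terminal domain, was at 196 ± 8.18 and 233 ± 16.5 CPM (SD, n = 3, adjusted p = 0.068). *CALR*, whose surface form binds the N-terminal domain together with *LRP1*, had the highest mean of the list over the 6 libraries. It was at 1070 ± 76.3 and 1221 ± 94.3 CPM (SD, n = 3, adjusted p = 0.24). In siLTBP2 alone *ITGB1* was higher, at a mean of 1335 CPM.

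The receptors that rose were integrin subunits that bind the N-terminal domain and a syndecan. *ITGB1*, the beta subunit shared by these integrins, went from 677, 704 and 763 CPM in siNT to 1343, 1315 and 1347 CPM in siLTBP2 (log2 fold change 0.90, adjusted p = 0.00018). *ITGA6* went from 119, 98.3 and 124 CPM to 523, 495 and 470 CPM, a log2 fold change of 2.12. *ITGA3* had a log2 fold change of 0.89 (adjusted p = 0.00091) and the heparan sulfate carrier *SDC1* one of 0.99 (adjusted p = 0.00041), both just under 2-fold. *ITGAV* and *ITGB3*, the chains of the integrin that binds the RGD sequence, had log2 fold changes of -0.25 and 0.49 and did not pass 0.01 (adjusted p = 0.046 and 0.013). Not all integrin and syndecan genes of the list rose. The integrin gene *ITGA4* had a log2 fold change of 0.11 (adjusted p = 0.39). The syndecan gene *SDC4* had one of 0.05 (adjusted p = 0.72), and *ITGA9* had too few counts to be tested. *CD36*, *CD47*, *ITGA3*, *SDC1*, *ITGAV*, *ITGB3*, *ITGA4*, *SDC4* and *ITGA9* were chosen to be named after their values were seen.

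**Figure D5:**
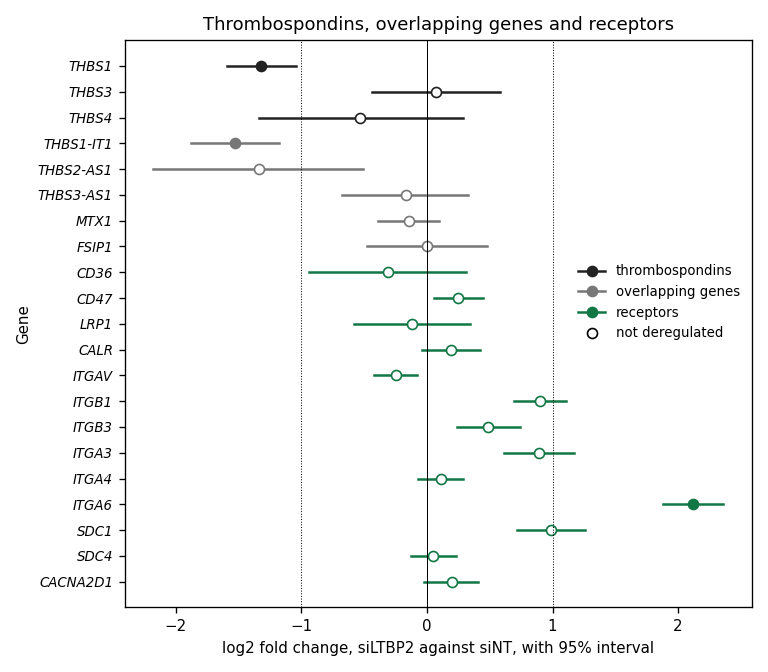
Log2 fold change of siLTBP2 against siNT with its 95% interval for the 3 tested thrombospondins (black), the tested genes that overlap members (grey) and the 13 tested receptors (green), with filled points for deregulated genes and dotted lines at 2-fold. The filled points of *THBS1* and *THBS1-IT1* and the open point of *THBS2-AS1* lie below -1, *ITGA6* lies above 2, and *THBS3* is centred near 0.

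Of 20 matrix proteins, growth factors and proteases that bind thrombospondins, 12 were tested, with a median log2 fold change of 0.27. None was deregulated, against 2.57% of all tested genes. At an adjusted p below 0.01 alone, 4 rose and none fell, against 4.78% and 4.38% of all tested genes. The 4 were *FN1* (fibronectin), *MATN3* (a matrilin that binds COMP), *TNFAIP6* (a hyaluronan-binding protein) and *TFPI* (an inhibitor of coagulation). Their log2 fold changes were 0.76, 0.99, 0.96 and 0.70, in that order. They were named after their values were seen. With the replicate number added to the fit as a block, 2 more partners passed 0.01 without reaching 2-fold. *COL1A2* rose (log2 fold change 0.29, adjusted p = 0.0041) and *MMP2*, named after its values were seen, fell (-0.28, adjusted p = 0.0044). That none fell therefore holds for the main fit only. The count of 0 deregulated became 1 in 5 of 15 alternatives, through *MATN3* without siNT replicate 3 or siLTBP2 replicate 1, through *TNFAIP6* without siNT replicate 2 or siLTBP2 replicate 3, and through the collagen IX gene *COL9A2*, high in 1 siLTBP2 library, with no filter. The 2 most abundant partners were the collagen I chains, of which *COL1A1* had 2278 ± 488 CPM with siNT and 1958 ± 504 CPM with siLTBP2, and *COL1A2* at 1725 ± 427 and 2149 ± 689 CPM (SD, n = 3), with an adjusted p of 0.49 and 0.39. Collagen II, collagen IX and aggrecan, the cartilage partners of COMP, were not tested for want of counts, like *COMP* itself.

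Latent TGF-beta is activated by the *THBS1* protein. Of 17 genes for TGF-beta, its latency proteins and its activators, *LTBP2* left out, 13 were tested, with a median log2 fold change of 0.16. One was deregulated, against 2.57% of all tested genes. It was *LRRC32* (GARP, which holds latent TGF-beta at the cell surface), from 0.344 ± 0.0829 to 1.27 ± 0.207 CPM (SD, n = 3, log2 fold change 1.88, adjusted p = 0.0012). At an adjusted p below 0.01 alone, 3 of the 13 rose and 2 fell, against 4.78% and 4.38% of all tested genes. Besides *LRRC32*, *LTBP1* (0.87) and the protease gene *MMP14* (0.83) rose. *LTBP3* and *FURIN*, whose product cleaves the TGF-beta precursor, fell by 0.92 and 0.84 on the log2 scale. *LTBP1*, *LTBP3* and *FURIN* were named after their values were seen. *LTBP1* reached 2-fold without siNT replicate 1 (1.01) and *LTBP3* without siLTBP2 replicate 2 (-1.02). *MMP2*, the most abundant member with *MMP14*, was at 488 ± 79.2 and 398 ± 31 CPM (SD, n = 3, adjusted p = 0.13). With the replicate block its adjusted p was 0.0044, at a log2 fold change of -0.28.

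*THBS1* is itself a target of TGF-beta and of the YAP and TEAD factors. Of 16 genes induced by TGF-beta in fibroblasts, all tested, 2 were deregulated, both higher. Of all tested genes, 1.29% were deregulated higher and 1.27% lower. The 2 genes were *TAGLN* (log2 fold change 1.16, adjusted p = 0.0010), which encodes an actin-binding protein, and *LOX* (1.18, adjusted p = 7.6e-05), which encodes a collagen crosslinking enzyme. The list had 9 genes above and 7 below 0, and a median of 0.16. *TGFBI*, the most abundant of the list after *COL1A1*, was at 435 ± 68.3 and 364 ± 25.7 CPM (SD, n = 3, adjusted p = 0.17). The call of *TAGLN* was lost without siLTBP2 replicate 3, where its log2 fold change was 0.92. *PMEPA1*, which encodes an inhibitor of TGF-beta signalling and was named after its values were seen, had 12.8, 6.77 and 6.71 CPM in siNT and 6.08, 3.53 and 2.56 CPM in siLTBP2, without overlap (log2 fold change -1.11, adjusted p = 0.035). It was not deregulated in the quasi-likelihood fit, but was called lower by the likelihood ratio test (adjusted p = 0.0065), with no filter and without siLTBP2 replicate 1.

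Of 22 targets of YAP and TEAD, *THBS1* left out, all were tested, and 2 were deregulated upward and 1 downward. Of all tested genes, 1.29% were deregulated upward and 1.27% downward. At an adjusted p below 0.01 alone, 3 of the 22 rose and 2 fell, against 4.78% and 4.38% of all. *ASAP1*, named after its values were seen, fell without reaching 2-fold (log2 fold change -0.73, adjusted p = 0.00037). *NT5E*, which encodes the adenosine-forming enzyme CD73, went from 408 ± 12.4 to 1101 ± 13.1 CPM (SD, n = 3, log2 fold change 1.43, adjusted p = 1.4e-05). *CCDC80*, which encodes a matrix protein, had a log2 fold change of 1.01, at the threshold. *F3*, the tissue factor gene, fell with *THBS1*, from 1069 ± 120 to 508 ± 70.6 CPM (SD, n = 3, log2 fold change -1.07, adjusted p = 0.00034). The median of the list was 0.09, with 13 genes above and 9 below 0. The 2 most abundant others, *AXL* and *MYOF*, had log2 fold changes of 0.51 (adjusted p = 0.0058) and 0.08 (adjusted p = 0.65). *CCDC80* lost its call with total counts, with no filter, without siNT replicate 3 and without siLTBP2 replicate 1, and *F3* without siLTBP2 replicate 1, where it changed by -0.98. *ANKRD1*, a repeat protein of the nucleus and sarcomere named after its values were seen, had a log2 fold change of 1.20 (adjusted p = 0.062) and was called higher by DESeq2 and with no filter.

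Other proteins share the type 1 repeat with *THBS1* and *THBS2* without belonging to the family. Of 58 such genes, 57 were in the table under their symbol and 30 were tested, with a median log2 fold change of 0.22. Of the 30, 2 were deregulated upward and 1 downward, against 1.29% and 1.27% of all tested genes. *ADAMTSL1*, which encodes a matrix protein related to the ADAMTS proteases, went from 1.58, 2.67 and 3.23 CPM to 9.36, 9.39 and 10.6 CPM (log2 fold change 1.96, adjusted p = 0.00024). The aggrecanase gene *ADAMTS5* fell from 115 ± 29.7 to 54 ± 13 CPM (SD, n = 3, log2 fold change -1.09, adjusted p = 0.0038), and *ADAMTS4*, another aggrecanase gene, was called upward on few counts, at a mean of 0.0428 CPM in siNT and 0.411 CPM in siLTBP2. The calls of *ADAMTS4* and *ADAMTS5* were each lost in 4 of the fits that leave out 1 library. The count of 1 lower gene ranged from 0 to 4 over the 15 alternatives and was 3 by the likelihood ratio test and 4 with no filter. The genes that joined, named after their values were seen, were the metalloprotease genes *ADAMTS14* (log2 fold change -1.27, adjusted p = 0.020), *ADAMTS19* (-1.17, adjusted p = 0.012) and *ADAMTS9* (-1.01, adjusted p = 0.058). Without siNT replicate 3 the count was 3, without siLTBP2 replicate 1 it was 2, and without any other single library it was 0. The abundant matricellular gene *CCN1* was at 380 ± 41.1 and 324 ± 56.4 CPM (SD, n = 3, adjusted p = 0.26), and *SEMA5A*, a semaphorin with type 1 repeats, had a log2 fold change of 0.14 (adjusted p = 0.51).

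Across the 6 libraries, the genes whose log2 CPM followed *THBS1* most closely, among 9189 protein-coding genes of at least 10 CPM, were *SYS1* (Pearson's r 0.999), a gene known here by its identifier ENSG00000286190 (0.998) and *C1orf216* (0.998). *SYS1* encodes a protein of Golgi transport. Its levels were 22.4, 20.3 and 21.4 CPM in siNT and 14.4, 14.3 and 14.5 CPM in siLTBP2, so that its fall was smaller than that of *THBS1*, with a log2 fold change of -0.57. *C1orf216* was at 28.7, 25.3 and 26.7 CPM and 16.1, 16.5 and 16.7 CPM, a log2 fold change of -0.71. With 6 points in 2 groups these correlations rest mostly on the difference between the groups, and they are given as a description.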

How the data were processed

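CCD18Co fibroblasts, 3 siNT and 3 siLTBP2 libraries, were profiled by RNA sequencing of total RNA depleted of ribosomal RNA. The authors aligned paired reads to GRCh38 with STAR and counted them per gene with HTSeq-count, and the counts deposited are raw. The submitters' processing notes give STAR 2.7.1a and HTSeq 0.11.2. The Ensembl release and strand setting: not given in the sources used here. Of the gene identifiers, 60462 are in GENCODE 44, 95.7% of them with the same start, and lengths and positions were taken from it.

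Counts were filtered (filterByExpr), normalized by TMM and tested with edgeR 4.0.16 in R 4.3.3 (glmQLFit and glmQLFTest, two-sided, Benjamini-Hochberg adjustment over 16920 genes). The study names the likelihood ratio test, used here only as an alternative. Standard errors are the log2 fold change over the square root of the statistic. Single values were also compared by exact permutation (scipy 1.17.1). Levels per length are CPM divided by the kilobases of the canonical transcript. The library totals of 44663424 to 53576899 counts limit precision for genes of few counts. Libraries of one group differed by more than sampling noise (chi-square per degree of freedom 28.0 to 55.0). The filter, the TMM factors and the quasi-likelihood calls were tested on counts simulated from the means and dispersions of these data. The other steps were not tested in this way.

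Named genes were the members, *LTBP2*, genes overlapping a member, the deregulated and the 2 most abundant other genes of each list, and the 3 genes most correlated with a member of at least 10 CPM. The members and lists were chosen with earlier results of these data known. Alternatives were the likelihood ratio test, DESeq2 1.42.0, scaling by total counts, RLE or the upper quartile, factors without the 50 highest genes, other filters, a replicate block, other thresholds and each library left out in turn. Protein sequences were not used here.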

Additional observations from a re-analysis of the deposited data

How the results depend on the processing

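*THBS1* kept its direction and call in all 15 alternatives run, with log2 fold changes from -1.40 to -1.22 and an adjusted p of at most 0.0015. *LTBP2* kept its call in all 15 as well, from -1.89 to -1.61. *THBS3* stayed uncalled, and its sign reversed without siNT replicate 3 (-0.10) and without siLTBP2 replicate 2 (-0.08), with a range from -0.10 to 0.31 over the fits without 1 library. *THBS4* stayed uncalled in 14 alternatives (-0.92 to -0.16) and was removed by the filter of 1 CPM in 3 libraries. No fold change is given for *THBS2* or *COMP*, since both groups were at or under 3 counts a library. With exon union lengths the mean ratio of *THBS1* to *THBS3* in siNT was 509, against 407, and the order of the family was the same.

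The count of 434 deregulated genes became 680 with no filter (356 lower). With no minimum fold change it was 1550 at an adjusted p below 0.01 and 3261 below 0.05, since genes under 2-fold are then added. By the likelihood ratio test, which the study names, the count was 619, and by DESeq2 it was 468. Without 1 library it lay between 308 and 405, with 137 to 201 higher, where the 137 came without siNT replicate 2, and 155 to 207 lower. The causes of the other changes were not tested. Deviations of libraries with the same replicate number had correlations of 0.30, 0.08 and 0.43. Those of libraries with different numbers lay between -0.39 and 0.1. The main fit treated the libraries as unpaired. The same-number correlation of 0.08 lay within the range of the others, while 0.30 and 0.43 lay above it. Pairing of the libraries is therefore not excluded. With the replicate block 636 genes were deregulated, 336 of them lower, and no call of a thrombospondin changed. *PMEPA1*, *ADAMTS9*, *ADAMTS14* and *ADAMTS19* were then called lower and *ANKRD1* higher. *COL1A2* (log2 fold change 0.29) and *MMP2* (-0.28) passed 0.01 with the block, with an adjusted p of 0.0041 and 0.0044, without reaching 2-fold. The list counts by the adjusted p alone were taken from the main fit and not repeated with the block. For the other 29 genes followed, a call was lost in 14 combinations of gene and setting and gained in none. Among all other genes of the lists, 12 gained a call in at least 1 setting, in 29 combinations. The list counts then ranged from 1 to 2 higher for the receptors and 0 to 1 higher for the partners. For latent TGF-beta and its activators they ranged from 1 to 2 higher and 0 to 1 lower. For the genes induced by TGF-beta they ranged from 0 to 1 lower, and for the YAP and TEAD targets from 1 to 3 higher. The proteins with type 1 repeats ranged from 1 to 3 higher and 0 to 4 lower. The sign of *FSIP1*, whose log2 fold change lay within 0.005 of 0, reversed under DESeq2 and RLE factors (0.00 in both), without siNT replicate 3 (0.11) and without siLTBP2 replicate 1 (0.15), and it ranged from -0.12 to 0.15 without 1 library. Depth limits what can be said of *THBS4*, *THBS2* and *COMP*.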
